A study of Mus musculus with 15 samples.

Results

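The Hox genes of B16-F10 cells, a pigmented mouse melanoma line, were followed across 15 RNA sequencing libraries. Members were the protein-coding genes of the count table whose GENCODE M21 symbol is Hox, a cluster letter from a to d and a number, which gave 39 of 46078 gene identifiers. The Hox A cluster on chromosome 6 held 11 of them, Hox B on chromosome 11 held 10, Hox C on chromosome 15 held 9 and Hox D on chromosome 2 held 9. In one arm the cells were given DMSO as vehicle, 2 µM GSK126 or 2 µM DZNep, and in a parallel arm either an siRNA directed at Ezh2 (siEzh2) or its scrambled control (scr). Each of the 5 groups had 3 libraries. GSK126 blocks the catalytic site of EZH2, while DZNep (3-deazaneplanocin A) acts on S-adenosylhomocysteine hydrolase, an enzyme on which cellular methylation depends. All groups share the same line, and treatment times and siRNA sequences were not given in the sources used here.

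Hox genes encode homeodomain transcription factors that give cells their position along the body axis. They lie in clusters in the order in which they act along that axis, and paralogs, the members with the same number in different clusters, descend from one ancestral gene. Outside their domain they are a classic target of Polycomb repression, in which EZH2, the catalytic subunit of PRC2, methylates lysine 27 of histone H3, while the Trithorax group, with the MLL methyltransferases, keeps active Hox genes on. Hox proteins bind DNA together with TALE homeodomain partners (Pbx, Meis and Pknox), and Cdx factors and retinoic acid act on the clusters from upstream.

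Promoter sequences are shown for 5 members whose levels the results turn on and for Hoxd9, which had no count in any library. They are the 250 bases before the annotated start, from RefSeq on GRCm38.p6, 5′ to 3′ on the strand of the gene. Capitals mark matches, on either strand, to TGATNNAT (the core bound by Hox and Pbx together), TTTATNG (a Cdx core), CCAAT or TATAAA. The reverse of TATAAA overlaps TTTATNG where the latter reads TTTATAG.
Hoxb8: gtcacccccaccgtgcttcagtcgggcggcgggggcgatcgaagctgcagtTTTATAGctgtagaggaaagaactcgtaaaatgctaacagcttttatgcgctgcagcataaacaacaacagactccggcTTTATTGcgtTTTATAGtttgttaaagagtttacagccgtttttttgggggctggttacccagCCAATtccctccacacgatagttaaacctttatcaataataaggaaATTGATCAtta
Hoxa2: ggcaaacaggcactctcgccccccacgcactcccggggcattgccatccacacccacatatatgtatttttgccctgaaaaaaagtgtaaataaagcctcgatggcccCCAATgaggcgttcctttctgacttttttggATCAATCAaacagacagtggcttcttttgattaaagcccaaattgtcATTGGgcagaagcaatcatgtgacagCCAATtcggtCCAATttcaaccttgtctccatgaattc
Hoxa6: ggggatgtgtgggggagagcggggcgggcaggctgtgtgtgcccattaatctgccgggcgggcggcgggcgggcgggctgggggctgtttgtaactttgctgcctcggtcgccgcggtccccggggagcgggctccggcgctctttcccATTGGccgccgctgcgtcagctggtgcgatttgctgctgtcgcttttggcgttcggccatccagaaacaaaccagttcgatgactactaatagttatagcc
Hoxa11: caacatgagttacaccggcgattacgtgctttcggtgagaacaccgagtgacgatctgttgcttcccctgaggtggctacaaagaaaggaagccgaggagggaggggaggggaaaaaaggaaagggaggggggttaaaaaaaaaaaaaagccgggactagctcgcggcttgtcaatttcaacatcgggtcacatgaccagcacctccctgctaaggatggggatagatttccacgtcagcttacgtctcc
Hoxd13: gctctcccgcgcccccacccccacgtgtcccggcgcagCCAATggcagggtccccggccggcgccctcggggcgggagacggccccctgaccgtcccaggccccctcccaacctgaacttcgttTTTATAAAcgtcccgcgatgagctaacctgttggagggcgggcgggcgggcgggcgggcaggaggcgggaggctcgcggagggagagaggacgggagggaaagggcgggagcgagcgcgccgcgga
Hoxd9: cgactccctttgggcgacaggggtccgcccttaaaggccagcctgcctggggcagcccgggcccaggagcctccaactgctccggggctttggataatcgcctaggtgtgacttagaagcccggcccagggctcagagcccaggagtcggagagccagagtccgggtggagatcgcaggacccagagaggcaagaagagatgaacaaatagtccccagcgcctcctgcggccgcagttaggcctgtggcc

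The Hoxb8 window lies at chr11:96281655-96281904 (plus strand) and holds 3 Cdx cores, of which 2 overlap a TATA box, 1 CCAAT box and 1 Hox-Pbx core. The Hoxa2 window, at chr6:52164832-52165081 (minus strand), holds 4 CCAAT boxes and 1 Hox-Pbx core. Hoxa6, at chr6:52208673-52208922 (minus strand), has 24 CpG dinucleotides and 1 CCAAT box, and Hoxa11, at chr6:52245811-52246060 (minus strand), has none of the 4 motifs. Hoxd13, at chr2:74667975-74668224 (plus strand), is the richest of the 6 in CpG with 31, and holds 1 CCAAT box and 2 overlapping TATA boxes. Hoxd9, at chr2:74697513-74697762 (plus strand), has 13 CpG and none of the motifs.

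RefSeq windows matched 22 of the 39 Hox genes, with 24 windows among the 32851 of all genes. The CCAAT box stood in 58.3% of the Hox windows and 33.8% of all windows, the Hox-Pbx core in 16.7% and 7.68%, the TATA box in 16.7% and 12.4%, and the Cdx core in 8.33% and 9.81%. The median CpG number was 12.5 in the Hox windows and 6 in all windows. These are matches of letters, given as a description.

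Depth differed between the libraries. Total counts lay between 33299524 and 64545747 per library, so that 1 count was worth 0.0154 to 0.0306 CPM (counts-per-million on library sizes scaled by TMM, the trimmed mean normalization of edgeR). Ezh2 itself was at 219 ± 6.6 CPM in scr and 39.6 ± 1.9 in siEzh2 (SD, n = 3), a log2 change of -2.47 ± 0.05 (SE, adjusted p = 1.22e-17), at 207 ± 2.7 in DMSO, 214 ± 6.8 with GSK126 and 155 ± 5.1 with DZNep, and Ezh1 was at means between 37.7 and 47.3 CPM. The 9 melanocyte markers summed to between 25460 and 25792 CPM in the DMSO libraries, 21535 and 21910 with GSK126, 22261 and 22635 with DZNep, 19059 and 20154 in scr and 24248 and 25717 in siEzh2. Of the 9, 5 were called lower with GSK126 and 6 lower and 1 higher in scr, each against DMSO, 8 were called higher in siEzh2 against scr, and with DZNep 3 were higher and 3 lower. The shares called were 55.6% with GSK126, 77.8% in scr, 88.9% in siEzh2 and 66.7% with DZNep. Over all tested genes, the shares in the same order were 12.7%, 25.9%, 26.1% and 62.3%. These also stand beside the fibroblast and epithelial calls below. Across all libraries blood markers summed to at most 0.424, endothelial markers to at most 0.325, and Krt5 and Krt14 were at 0. The fibroblast list summed to 52.2 to 63.6 CPM with DZNep against 19.8 to 21.2 in DMSO, 20.6 to 22.6 with GSK126, 15 to 15.7 in scr and 23.2 to 25.1 in siEzh2. Of its 3 tested members, Postn was called higher with DZNep, Postn and Pdgfra in siEzh2 against scr, and Pdgfra lower in scr than in DMSO, and Thy1 was at 0. The epithelial list, with Cdh1 its only tested member, summed to 11.3 to 11.7 CPM with DZNep against 3.4 to 3.65 in DMSO, and to 4.51 to 4.95 in siEzh2 against 2.33 to 3.01 in scr. Cdh1 was called higher in both comparisons, and lower in scr than in DMSO. The part of these 3 lists in the Hox results was not tested.

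Of the 39 Hox genes, 6 were silent, with 0 counts in all 15 libraries. They were Hoxb1, Hoxc9, Hoxc11, Hoxc12, Hoxd1 and Hoxd9. A count of 0 over all libraries allows a level of up to 0.00465 CPM, and intervals and limits of this kind cover counting error only. Another 6 genes had at most 3 counts over the 3 libraries of each group (Hoxc8, Hoxc10, Hoxc13, Hoxd8, Hoxd11 and Hoxd12), so that 12 of the 39 were at the floor everywhere.

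A further 7 Hox genes were above the floor in some group but below the low-count filter of edgeR, with at most 12 counts in any library. Hoxc6, the highest of the Hox C cluster, had 10 counts over the 3 DMSO libraries, 18 with GSK126, 27 with DZNep, 9 in scr and 7 in siEzh2. Hoxa13, the last gene of its cluster, had 3, 7, 15, 3 and 5 counts in the same order. Hoxc4 had 7, 0, 9, 10 and 1 counts, Hoxc5 had 5, 4, 7, 1 and 1, and Hoxb2 had 5, 5, 2, 7 and 2. Hoxb7 had 6, 2, 0, 5 and 4 counts, and Hoxd10 had 4, 0, 3, 1 and 0. With no count filter, 2 of them were called higher with DZNep than with DMSO, Hoxc6 (log2 change 1.71, adjusted p = 0.0149) and Hoxa13 (2.47, adjusted p = 0.0209), both at a few counts per library. Hoxc4 was called higher with DZNep than with GSK126 (adjusted p = 0.0095), where GSK126 had 0 counts.

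The 4 clusters differed in how many members were expressed. The filter left 20 Hox genes, with 10 of 11 in Hox A, 7 of 10 in Hox B, 3 of 9 in Hox D and 0 of 9 in Hox C. Among the 10 coding genes that flank each cluster, 8 were tested at Hox A, 7 at Hox B, 8 at Hox C and 9 at Hox D, with a median level of 62.98 CPM at Hox A, 22.5 at Hox B, 59.9 at Hox C and 83.7 at Hox D. The Hox C genes were therefore at or near 0 between neighbours that were read well. Summed per length of exon, Hox A carried 58.8% of the Hox signal in DMSO, Hox D 26.8%, Hox B 14.3% and Hox C 0.113%.

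Compared between genes as CPM per kb of exon, Hoxd13 and Hoxa10 stood highest. In DMSO, Hoxd13, which acts at the far end of the limb and trunk axis, was at 11.4 ± 1.0 and Hoxa10, a posterior gene of the Hox A cluster, at 9.68 ± 0.16 (SD, n = 3). Next came Hoxa7 at 4.63 ± 0.46, Hoxa5 at 3.86 ± 0.18, Hoxa3 at 3.41 ± 0.24 and Hoxb9 at 2.93 ± 0.55, and of the neighbours in this order only Hoxa3 and Hoxb9 overlapped between their DMSO libraries. With the longest transcript as the length in place of all exons, Hoxa10 came first over all libraries, followed by Hoxd13 and Hoxa3, so the order at the top depends on the length used.

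Expression did not run evenly along a cluster. Hoxd13 was the highest member per length, while Hoxd12, 3.41 kb away, and Hoxd11, Hoxd10, Hoxd9 and Hoxd8 beyond it had no more than 4 counts in any group, before Hoxd3 and Hoxd4 were read again at 0.58 ± 0.042 and 0.847 ± 0.065 per kb in DMSO. Evx2, a homeobox gene on the other side of Hoxd13, was at 0.0155 CPM in DMSO. In Hox B, Hoxb7 had at most 6 counts in a group between Hoxb8 and Hoxb6, which lie 1.31 and 2.31 kb from it and were each near 1 per kb in DMSO (1.08 ± 0.042 and 1.03 ± 0.11). In Hox A, Hoxa13 was near the floor beyond Hoxa11 and Hoxa10.

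**Figure D1:**
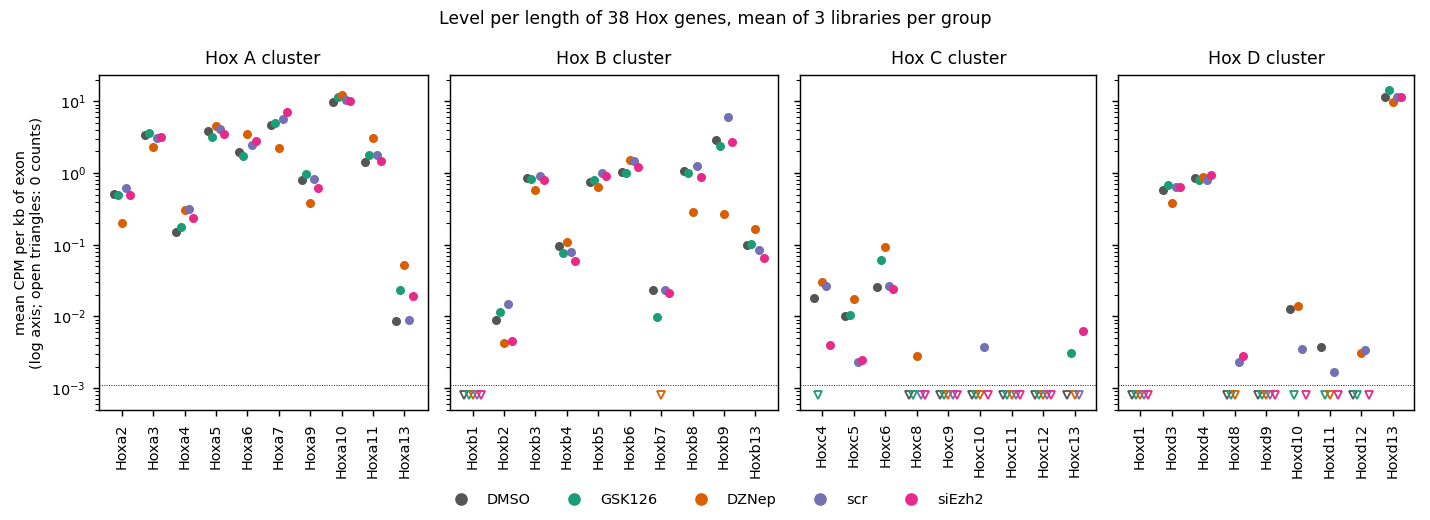
Mean CPM per kb of exon (log axis) of 38 Hox genes in 3 libraries per group, by cluster and in order of paralog number. Open triangles mark groups with 0 counts. Hoxd13 and Hoxa10 stand between 9.68 and 14.5 in every group, and all 9 Hox C genes stand below 0.1.

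DZNep moved the Hox genes most widely and in both directions. Of the 20 tested members, 6 rose and 10 fell against DMSO at an adjusted p under 0.05 by the quasi-likelihood test of edgeR, so that 80% of them were called, beside 62.3% of all 15152 tested genes (31.2% higher and 31% lower). Hoxb9 and Hoxb8 fell most, by 10.6-fold and 3.8-fold, and Hoxa11 rose most clearly, 2.15-fold. The median log2 change of the 20 was -0.19, against 0.0017 for all tested genes. Hox A had 5 members up and 5 down, Hox B 1 up and 3 down, and Hox D 2 down.

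Among the genes that fell, the Hox B pair of Hoxb9 and Hoxb8, which act in the thoracic part of the axis, came first. Hoxb9 (ENSMUSG00000020875, chr11:96271457-96276595 on GRCm38) was at 9.16, 6.73 and 6.71 CPM in the DMSO libraries and at 0.502, 0.715 and 0.86 with DZNep, a log2 change of -3.40 ± 0.19 (SE, adjusted p = 1.23e-11). Every DZNep library was far below every DMSO library. Hoxb8 was at 2.96, 2.77 and 2.77 CPM in DMSO and at 0.915, 0.691 and 0.656 with DZNep (-1.92 ± 0.15, adjusted p = 1.46e-09). Hoxb3, an anterior member that patterns the hindbrain, was at 3.87, 3.35 and 3.51 CPM in DMSO and 2.3, 2.69 and 2.44 with DZNep (-0.52 ± 0.13, adjusted p = 0.00124). For both genes the groups did not overlap. The summed Hox B level was 18.6 ± 2.02 CPM in DMSO and 9.41 ± 0.836 with DZNep (SD, n = 3), and Hox B's share of the Hox signal per length was 14.3% and 7.98%. Of these sums, Hoxb9 alone made up 7.53 CPM in DMSO and 0.692 with DZNep, so they do not stand for a fall of every member.

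In Hox A the genes that fell included the anterior Hoxa2 and Hoxa3 and the central Hoxa7 and Hoxa9. Hoxa7 was at 14.8, 12.3 and 12.9 CPM in DMSO and 7.08, 6.63 and 5.43 with DZNep (log2 change -1.07 ± 0.11, adjusted p = 3.27e-08). Hoxa9, known as a driver of leukaemia together with Meis1, was at 4.49, 4.31 and 4.45 CPM in DMSO and 2.15, 1.81 and 2.4 with DZNep (-1.06 ± 0.12, adjusted p = 2.38e-07). Both genes thus stood at 2.09-fold and 2.08-fold lower levels with no overlap of the groups. Hoxa2, which sets the identity of the second pharyngeal arch, was at 0.765, 1.05 and 0.893 CPM in DMSO and 0.354, 0.334 and 0.385 with DZNep (-1.33 ± 0.25, adjusted p = 0.000133). Hoxa3, needed for the thymus and parathyroid, was at 19.1, 20.5 and 22 CPM in DMSO and 13.6, 13.9 and 14.4 with DZNep (-0.56 ± 0.07, adjusted p = 1.74e-06). The groups did not overlap in any of these 4 genes, nor in the other Hox genes called with DZNep. The share of all tested genes without overlap was not computed. Here and in the other comparisons, called genes were chosen by a test on the same libraries, so a lack of overlap is no separate support.

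The genes that rose lay in Hox A and Hox B, which also held genes that fell. Hoxa11, a gene of the limb, kidney and uterus, was at 3.56, 3.24 and 3.1 CPM in DMSO and 7.38, 6.75 and 7.13 with DZNep (log2 change 1.11 ± 0.13, adjusted p = 2.99e-07). Hoxa10 was at 31.5, 32.2 and 31.2 CPM in DMSO and 38.6, 39.6 and 40.9 with DZNep, a smaller rise of 1.26-fold (0.33 ± 0.06, adjusted p = 6.36e-05). These posterior neighbours of Hoxa9 were higher in every DZNep library than in any DMSO library. Hoxa6 was at 1.86, 1.86 and 1.42 CPM in DMSO and 3.78, 2.34 and 3.08 with DZNep (0.84 ± 0.17, adjusted p = 0.000208), and Hoxb6 at 2.18, 2.12 and 1.79 in DMSO and 2.92, 2.86 and 3.26 with DZNep (0.59 ± 0.13, adjusted p = 0.000666). Again no DZNep library overlapped with DMSO.

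The other 2 rises were less firm. Hoxa5, a gene of the cervical and lung region, was at 7.6, 6.92 and 7.21 CPM in DMSO and 7.64, 8.91 and 9.23 with DZNep (log2 change 0.25 ± 0.09, adjusted p = 0.0165). The call was lost in a fit of the compared groups only (adjusted p = 0.0578), without DMSO replicate 2 (0.06), and without DZNep replicate 2 (0.0613) or 3 (0.0936). Hoxa4 was at 0.263, 0.256 and 0.2 CPM in DMSO and 0.649, 0.334 and 0.475 with DZNep (1.01 ± 0.35, adjusted p = 0.0167), and lost its call without DMSO replicate 3 (adjusted p = 0.0687) or DZNep replicate 1 (0.0928).

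In Hox D, Hoxd3 was at 2.37, 2.63 and 2.29 CPM in DMSO and 1.83, 1.12 and 1.9 with DZNep (log2 change -0.59 ± 0.16, adjusted p = 0.00379). Hoxd13 was at 29, 30.4 and 25.6 CPM in DMSO and 24.3, 24.1 and 25.6 with DZNep (-0.20 ± 0.08, adjusted p = 0.0327). The ranges of Hoxd13 all but touched, and its call was lost without DMSO replicate 1 or 2 or DZNep replicate 1 or 2 (adjusted p from 0.077 to 0.152). Hoxb4, Hoxb5, Hoxb13 and Hoxd4 did not pass the test with DZNep. Hoxb13 was at 0.236, 0.238 and 0.611 CPM with DZNep against a mean of 0.222 ± 0.0597 in DMSO, and it was called without DZNep replicate 1 (adjusted p = 0.0471) or 2 (0.0394).

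Paralogs, arranged by number after their values were seen, gave the following picture with DZNep. All 3 tested members of group 3 fell (Hoxa3, Hoxb3 and Hoxd3), both of group 6 rose (Hoxa6 and Hoxb6) and both of group 9 fell (Hoxa9 and Hoxb9). In groups 4, 5 and 13 only 1 member passed the test, and the other 6 groups had 1 tested member each. No group held called members of both directions. How reads that match several genes were treated is not given in the sources used here, and the homeobox is alike between paralogs.

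**Figure D2:**
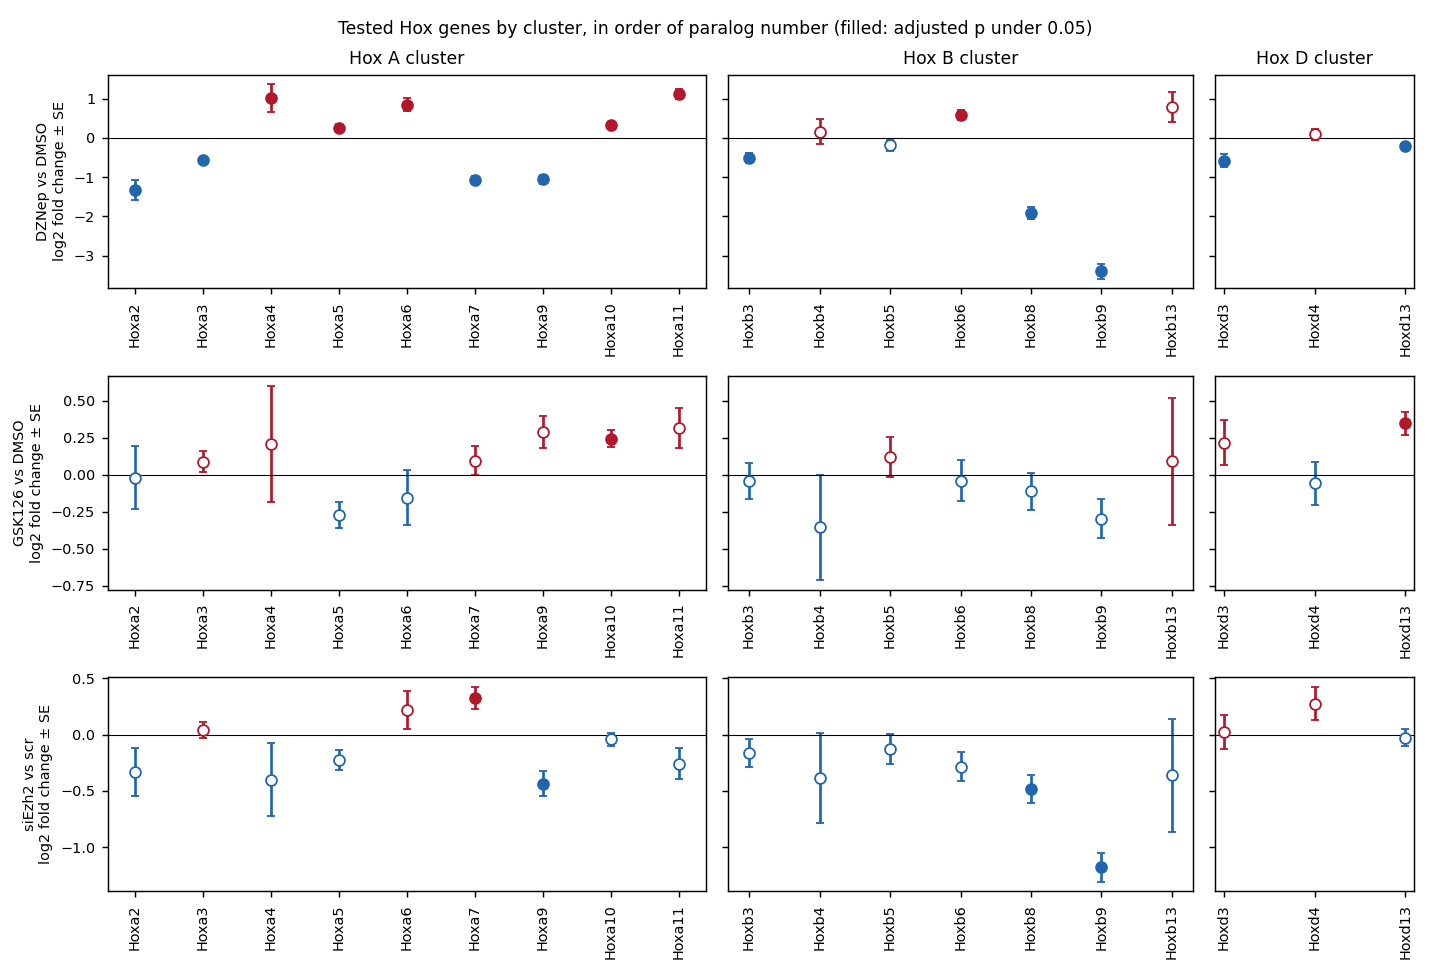
Log2 fold change ± SE of 19 tested Hox genes by cluster and paralog number, for DZNep with DMSO, GSK126 with DMSO and siEzh2 with scr. Filled points have an adjusted p under 0.05, and the vertical scale differs between the panels. With DZNep 15 points are filled on both sides of 0, with GSK126 2 and with siEzh2 4.

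With GSK126, the share of Hox genes called was near that of all tested genes. Of the 20, 2 rose against DMSO, Hoxd13 and Hoxa10, a share of 10% beside 12.7% of all tested genes (7.15% higher and 5.54% lower), and these are the pair with the highest levels per length. They also had the most counts of the Hox genes, 4183 and 4728 over the DMSO libraries. A change of like size at fewer counts did not pass in Hoxa11 (0.32 ± 0.13, adjusted p = 0.129, 489 counts in DMSO). Hoxd13 was at 29, 30.4 and 25.6 CPM in DMSO and 36.1, 34.7 and 37.2 with GSK126, 1.27-fold higher (log2 change 0.35 ± 0.08, adjusted p = 0.00437). Hoxa10 was at 31.5, 32.2 and 31.2 CPM in DMSO and 35.3, 38.1 and 38.9 with GSK126, 1.18-fold higher (0.24 ± 0.06, adjusted p = 0.00889). In both genes each GSK126 library was above each DMSO library, and for Hoxa10 the call was lost without GSK126 replicate 3 (adjusted p = 0.0557).

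None of the 20 was called lower with GSK126 by edgeR or by DESeq2, and 2 were lower at an unadjusted p under 0.05. Hoxa5 was at 5.52, 5.87 and 6.59 CPM with GSK126 against 7.6, 6.92 and 7.21 in DMSO (log2 change -0.27 ± 0.09, adjusted p = 0.0539), and was called without GSK126 replicate 3 (adjusted p = 0.0388). Hoxb9 was at 6.97, 5.37 and 6.03 CPM with GSK126, which overlaps its DMSO range, and was called lower with no count filter (-0.30, adjusted p = 0.0395). Hoxa9 was at 5.04, 5.6 and 5.52 CPM, above all 3 DMSO libraries, with an adjusted p of 0.0828. The 18 members that did not pass had log2 changes between -0.36 and 0.32, and the median of the 20 was 0.089 against -0.0091 for all tested genes.

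Set beside each other at 2 µM, the compounds differed in 14 of the 20 Hox genes, 4 higher and 10 lower with DZNep than with GSK126, a share of 70% where 64.6% of all tested genes were called (32.9% higher and 31.7% lower). The difference was largest for Hoxb9 (log2 -3.11, adjusted p = 6.41e-11), Hoxb8 (-1.81, adjusted p = 4.39e-09) and Hoxa9 (-1.34, adjusted p = 6.23e-09). Hoxd13, at 36 ± 1.23 CPM with GSK126 and 24.7 ± 0.808 with DZNep, also differed (-0.55, adjusted p = 3.87e-06). Hoxa5, at 6 ± 0.543 CPM with GSK126 and 8.6 ± 0.842 with DZNep, was 0.52 higher in log2 (adjusted p = 3.98e-05). Hoxa10 did not pass the test between the compounds, at 37.4 ± 1.85 and 39.7 ± 1.15 CPM (0.09, adjusted p = 0.206). With the replicate number as a block, Hoxa4 was added (0.81, adjusted p = 0.0487). In GSK126, Hoxa4 was at 0.483, 0.207 and 0.146 CPM, and it was called without GSK126 replicate 1 (1.41, adjusted p = 0.00292) or DZNep replicate 2 (1.01, adjusted p = 0.0255). Hoxb5 was called lower with DZNep than with GSK126 without DZNep replicate 3 (-0.47, adjusted p = 0.0134).

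Knockdown of Ezh2 changed 4 of the 20 Hox genes against scr, 1 up and 3 down, a share of 20% beside 26.1% of all tested genes (13.2% higher and 12.9% lower). Hoxb9 was at 14.9, 16.9 and 15.4 CPM in scr and 7.49, 7.45 and 5.94 in siEzh2, 2.26-fold lower (log2 change -1.18 ± 0.13, adjusted p = 1.02e-06). Hoxb8 was at 3.28, 3.11 and 3.42 CPM in scr and 2.38, 2.43 and 2.22 in siEzh2 (-0.48 ± 0.13, adjusted p = 0.00741). The groups did not overlap in either gene of this Hox B pair. Hoxa9 was at 4.2, 4.96 and 4.74 CPM in scr and 3.61, 3.67 and 3.01 in siEzh2 (-0.44 ± 0.11, adjusted p = 0.00692), and Hoxa7 was the gene that rose, from 15.6, 17.8 and 15.4 CPM in scr to 17.9, 22.5 and 20.8 in siEzh2 (0.33 ± 0.09, adjusted p = 0.0141). Hoxa9 lost its call without siEzh2 replicate 3 (adjusted p = 0.0637), and Hoxa7 without scr replicate 1 (0.0507), scr replicate 3 (0.0523) or siEzh2 replicate 2 (0.0894).

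The other 16 tested members did not pass, with log2 changes between -0.40 and 0.27. The median of the 20 was -0.20, against -0.011 for all tested genes. Hoxa10 and Hoxd13, the pair that GSK126 raised, were at 33.1 ± 1.54 and 28.1 ± 3.49 CPM in siEzh2 and 34.1 ± 2.28 and 28.6 ± 1.24 in scr (SD, n = 3). The silent genes were at 0 in siEzh2 by their definition over all 15 libraries, so this says nothing about a response to the knockdown. In a single group, 0 counts over 3 libraries allow a level of up to 0.0200 to 0.0259 CPM, the range over the 5 groups.

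The controls themselves differed, and in Hox genes at about the share of all tested genes. Scr was above DMSO in 5 of the 20 members, a share of 25% beside 25.9% of all tested genes (12.2% higher and 13.6% lower). With library totals as the scale, 58.5% of the calls over all genes were higher in scr, against 47.3% with TMM, and 5 Hox genes were called with either. By edgeR and by DESeq2 no member was lower, and 1 was lower at an unadjusted p under 0.05. Hoxb9 was at 9.16, 6.73 and 6.71 CPM in DMSO and 14.9, 16.9 and 15.4 in scr (log2 change 1.07 ± 0.12, adjusted p = 2.92e-06), and Hoxb6 at 2.18, 2.12 and 1.79 in DMSO and 3.33, 2.75 and 2.65 in scr (0.54 ± 0.13, adjusted p = 0.00398). The libraries of these groups did not overlap. Hoxb5 (0.44 ± 0.13, adjusted p = 0.0174), Hoxa4 (1.08 ± 0.34, adjusted p = 0.0229) and Hoxa7 (0.29 ± 0.10, adjusted p = 0.0294) were also higher in scr. Each of these 3 lost its call in some fits without 1 library, Hoxb5 without DMSO replicate 2 or scr replicate 1 or 3, Hoxa4 without DMSO replicate 3 or any scr library, and Hoxa7 without DMSO replicate 2 or 3 or scr replicate 2 (adjusted p from 0.0505 to 0.151).

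The falls of Hoxb9 and Hoxb8 with siEzh2 were called against scr and not against DMSO. For Hoxb8, scr itself did not pass against DMSO (log2 change 0.21, adjusted p = 0.225). All its siEzh2 libraries (2.38, 2.43 and 2.22 CPM) were below all its DMSO libraries (2.96, 2.77 and 2.77). Set against DMSO in a comparison added after the data were seen, Hoxb9 in siEzh2 (6.96 ± 0.885 CPM) differed by -0.11 in log2 (adjusted p = 0.623) from DMSO (7.53 ± 1.4), and Hoxb8 by -0.27 (adjusted p = 0.162). Hoxa7 (0.62, adjusted p = 0.000201) and Hoxa9 (-0.37, adjusted p = 0.0338) kept their direction and call against DMSO, and Hoxa6 was called higher (0.55, adjusted p = 0.0405). Over all genes, 2148 of 15152 tested were called in this comparison. The arms were run in parallel with different controls, and arm and control cannot be told apart.

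The effect of siEzh2 against scr and that of GSK126 against DMSO were compared in the same fit. They differed in 5 of the 20 Hox genes, all lower in the siEzh2 effect, a share of 25% beside 20.7% of all tested genes (10.1% higher and 10.5% lower). The difference was -0.88 ± 0.18 for Hoxb9 (log2 ± SE, adjusted p = 0.00166) and -0.72 ± 0.16 for Hoxa9 (adjusted p = 0.00211). Hoxb9 was at 6.12 ± 0.807 CPM with GSK126 and 7.53 ± 1.4 in DMSO, and at 6.96 ± 0.885 in siEzh2 and 15.7 ± 1.04 in scr (SD, n = 3). Its scr level was itself called above DMSO (1.07, adjusted p = 2.92e-06), and the part of this in the difference was not tested. Hoxa9 was at 5.39 ± 0.301 CPM with GSK126 and 4.42 ± 0.0968 in DMSO, and at 3.43 ± 0.363 in siEzh2 and 4.63 ± 0.389 in scr. Hoxa11 (-0.58 ± 0.19, adjusted p = 0.0385), Hoxa10 (-0.28 ± 0.08, adjusted p = 0.0185) and Hoxd13 (-0.37 ± 0.11, adjusted p = 0.0179) were the other 3. Hoxa10 and Hoxd13 lost this call without GSK126 replicate 3, scr replicate 3 or siEzh2 replicate 3 (adjusted p from 0.0511 to 0.0693), and Hoxa11 without DMSO replicate 2 or 3, GSK126 replicate 2 or 3, scr replicate 2 or 3 or siEzh2 replicate 1 or 3, or when the fit held the compared groups alone (0.0544 to 0.131).

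**Figure D3:**
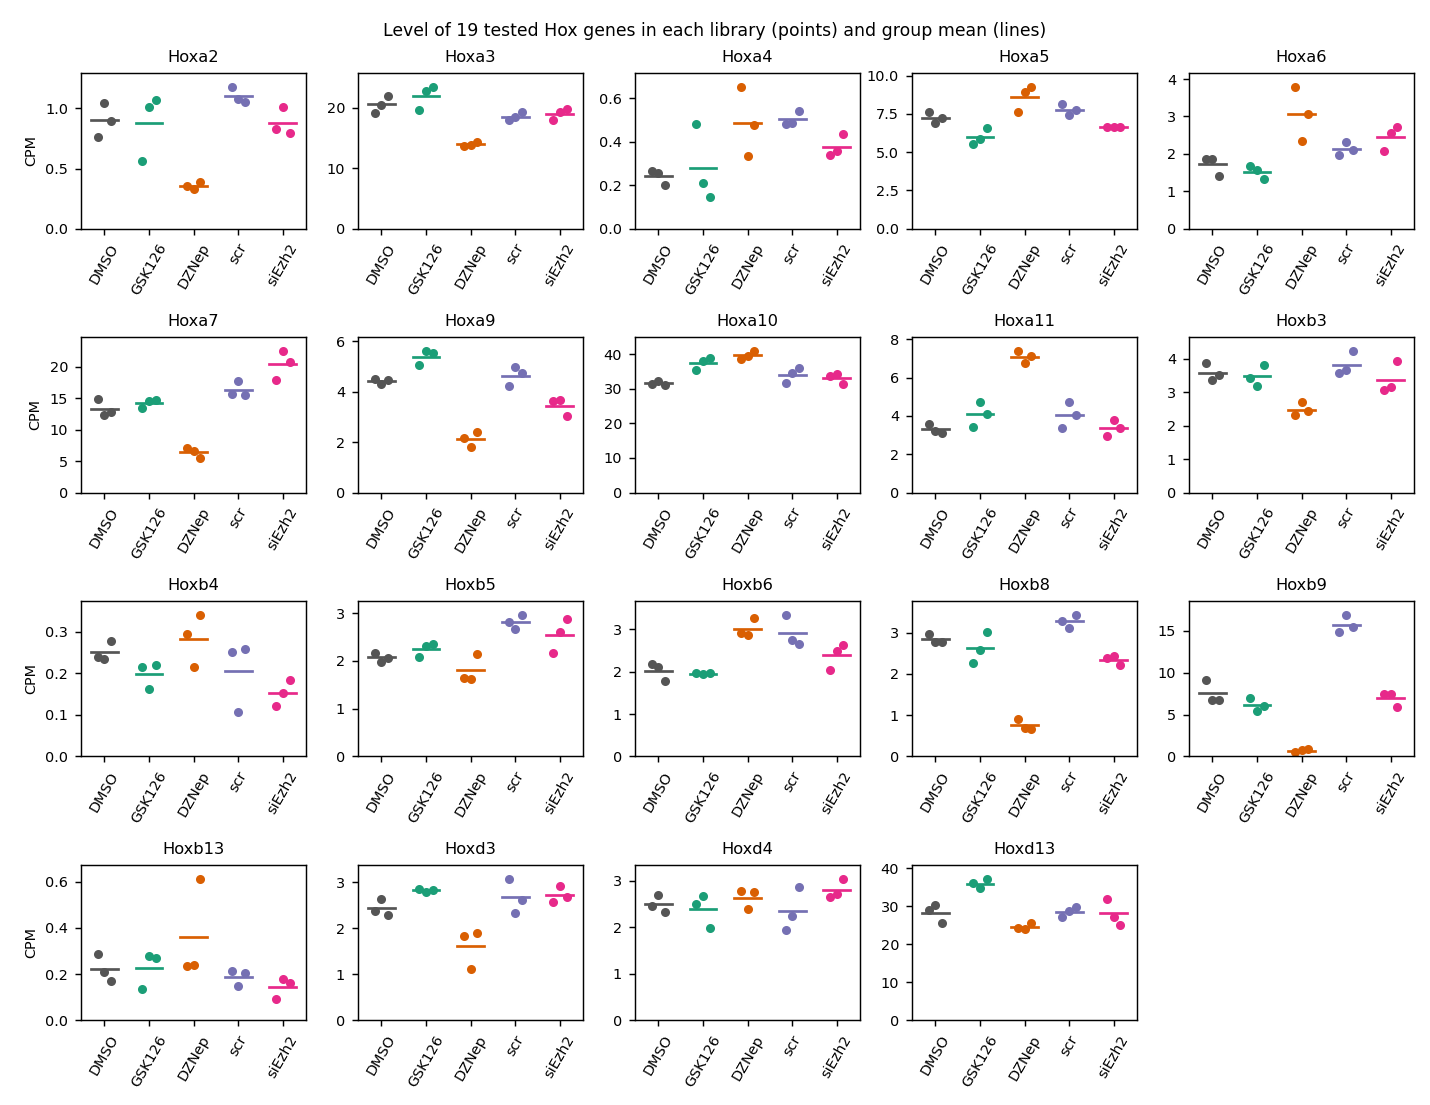
Level of 19 tested Hox genes in CPM in each of the 15 libraries (points), with the mean of 3 libraries per group as a line. Every axis starts at 0. Hoxb9 is highest in scr at 14.9 to 16.9 CPM and lowest with DZNep at 0.502 to 0.86 CPM.

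Non-coding genes of the Hox clusters were read from 48 entries, of which 9 passed the filter and 25, among them Hotair, were at 0 in all libraries. With DZNep 2 of the 9 rose and 5 fell, 77.8% beside 62.3% of all tested genes, with a median log2 change of -1.20. Hoxd3os1, whose first part lies antisense to Hoxd3, was at 9.56, 9.32 and 9.01 CPM in DMSO and 3.31, 3.48 and 2.76 with DZNep (-1.55, adjusted p = 1.3e-10). Hotairm1, a non-coding gene at the anterior end of Hox A, was at 2.3, 1.7 and 2.13 CPM in DMSO and 0.62, 0.882 and 1.11 with DZNep (-1.20, adjusted p = 8.11e-06). Hoxd3 fell in the same libraries. Gm15050 also fell with DZNep, from a mean of 1.13 to 0.244 CPM (-2.23, adjusted p = 7.01e-07), and Gm27817 rose from 0.0683 to 0.351 CPM (2.47, adjusted p = 0.000186).

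Hoxa11os, on the strand opposite Hoxa11, was the only one of the 9 called by edgeR with GSK126 and the only one with siEzh2, 11.1% beside 12.7% and 26.1% of all tested genes. It was at 1.12, 1 and 1.22 CPM in DMSO, 1.85, 1.61 and 1.43 with GSK126 (log2 change 0.53 ± 0.16, adjusted p = 0.0337) and 2.69, 2.46 and 2.24 with DZNep (1.12, adjusted p = 2.43e-06). In the siRNA arm it was at 1.56, 2.12 and 1.93 CPM in scr and 1.31, 1.44 and 1.3 in siEzh2 (-0.46, adjusted p = 0.0361), with scr itself called above DMSO (0.73, adjusted p = 0.00152). DESeq2 called neither the GSK126 change (adjusted p = 0.0543) nor the siEzh2 change (0.0796). The difference of these effects was -0.99 (adjusted p = 0.00312). The strand setting of the counting is not given in the sources used here, and 35.0% of the exon bases of Hoxa11, 62.8% of Hoxd3, 52.9% of Hoxb3, 52.3% of Hoxd4, 27.1% of Hoxa3 and 20.4% of Hoxa7 are shared with other annotated genes. How far reads of these genes and their partners were told apart is therefore not known. Hoxa5, Hoxa6, Hoxa10, Hoxb4, Hoxb6, Hoxb8, Hoxb9, Hoxb13 and Hoxd13 share no exon base with another gene.

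**Figure D4:**
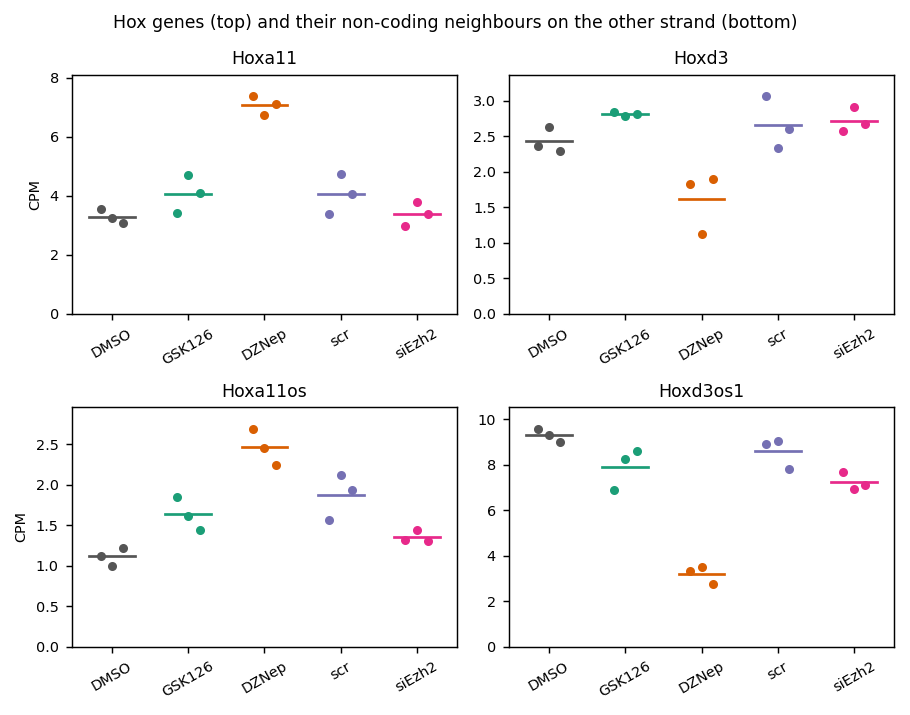
CPM in each library (points) and group mean (lines) of Hoxa11 and Hoxd3 (top) and of Hoxa11os and Hoxd3os1, which lie on the opposite strand beside or over them (bottom). With DZNep, Hoxa11 and Hoxa11os are both above DMSO, and Hoxd3 and Hoxd3os1 are both below it.

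Of the protein-coding neighbours of the clusters, 5 at each end, 32 were tested. The shares called were 65.6% with DZNep, 21.9% with GSK126 and 31.2% with siEzh2, beside 62.3%, 12.7% and 26.1% of all tested genes, and the members named here and in the lists that follow were chosen by their p, not by the size of the change. With DZNep 10 rose and 11 fell, with Atp5g1 (log2 change 0.90, adjusted p = 7.32e-08) and Ube2z (0.45, adjusted p = 8.37e-08) higher and Nfe2l1 (-0.78, adjusted p = 6.72e-12) and Jazf1 (-0.44, adjusted p = 3.37e-05) lower. With GSK126, 6 rose and Snf8 fell (-0.21, adjusted p = 0.0166). Chn1, a signalling gene beside Hox D, was at a mean of 15.8 CPM in DMSO and 27.7 with GSK126 (0.81, adjusted p = 1.28e-07), and Jazf1 rose from 13.7 to 19.1 CPM (0.48, adjusted p = 0.000105). With siEzh2, 7 rose, among them Ube2z (0.26, adjusted p = 0.000444) and Creb5 (0.73, adjusted p = 0.000655), and 3 fell, among them Nfe2l1 (-0.18, adjusted p = 0.00461) and Cbx1 (-0.19, adjusted p = 0.0118). Against DMSO, scr itself was called lower in Ube2z and higher in Nfe2l1, and was not called in Creb5 or Cbx1.

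All 9 TALE genes were expressed, and their calls went both ways. With GSK126 33.3% of them were called, with DZNep 77.8% and with siEzh2 44.4%, beside 12.7%, 62.3% and 26.1% of all tested genes. With GSK126, 3 rose, among them Pbx3 (0.48, adjusted p = 5.08e-06) and Pknox2 (0.52, adjusted p = 0.00046). With DZNep, 3 rose, among them Pknox2 (0.64, adjusted p = 2.63e-06) and Meis2 (0.30, adjusted p = 0.000132), and 4 fell, among them Meis3 (-0.58, adjusted p = 9.11e-06). With siEzh2, 2 rose, among them Meis2 (0.39, adjusted p = 2.5e-05), and Pknox2 (-0.79, adjusted p = 1.57e-06) and Meis3 (-0.41, adjusted p = 0.0014) fell. Against DMSO, scr itself was called higher in Pknox2 and lower in Meis2, and was not called in Meis3. Median changes of the 9 were 0.086, 0.11 and -0.045 in the 3 comparisons.

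Of 15 Cdx and retinoid genes, 7 were tested, and Cdx2, Cdx4 and Aldh1a2 were at 0 in all libraries. Cyp26b1, which degrades retinoic acid, was at a mean of 30.7 CPM in DMSO, 38.6 with GSK126 (log2 change 0.33, adjusted p = 0.00831) and 3.88 with DZNep (-2.98, adjusted p = 2.16e-15), and at 33.2 in scr and 13.3 in siEzh2 (-1.32, adjusted p = 4.7e-10). It was the only one of the 7 called with GSK126, 14.3% beside 12.7% of all tested genes. With DZNep all 7 were called, beside 62.3% of all tested genes, 3 higher, among them Aldh1a3, which makes retinoic acid (0.80, adjusted p = 7.42e-06), and Rxra (0.22, adjusted p = 0.000264), and 4 lower, with the receptor Rarg (-0.69, adjusted p = 2.86e-09) after Cyp26b1. With siEzh2, Rarb rose (0.83, adjusted p = 1.11e-05) and 3 fell, Cyp26b1, Rara (-0.46, adjusted p = 2.69e-05) and Rarg, 57.1% beside 26.1% of all tested genes. Against DMSO, scr itself was higher in Rara (0.33, adjusted p = 0.000868) and Rarg (0.26, adjusted p = 0.00221) and lower in Rarb (-0.52, adjusted p = 0.00139). The medians of the 7 were -0.024, -0.33 and -0.17.

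The chromatin regulators of the clusters were all expressed. With GSK126, DZNep and siEzh2 in turn, 23.1%, 84.6% and 53.8% of the PRC2 list and 26.3%, 52.6% and 31.6% of the PRC1 list were called, beside 12.7%, 62.3% and 26.1% of all tested genes. Of 13 PRC2 subunits, 3 fell with GSK126, among them Rbbp7 (log2 change -0.22, adjusted p = 0.00709) and Rbbp4 (-0.17, adjusted p = 0.0418). With DZNep 6 rose, among them Eed (0.44, adjusted p = 6.3e-07) and Eloa (0.26, adjusted p = 0.00012), and 5 fell, among them Ezh2 (-0.41, adjusted p = 3.67e-07) and Phf19 (-0.51, adjusted p = 2.44e-06). With siEzh2, Jarid2 rose (0.20, adjusted p = 0.00584) and 6 fell, Phf19 next after Ezh2 (-0.56, adjusted p = 2.26e-06). Against DMSO, edgeR called scr itself higher in Phf19 and not in Ezh2, and DESeq2 alone called it lower in Jarid2. Of 19 PRC1 subunits, 2 rose with GSK126 (Bmi1 0.44, adjusted p = 3.92e-06, and Rnf2 0.17, adjusted p = 0.039) and 3 fell, among them Cbx6 (-0.24, adjusted p = 0.0048) and Ring1 (-0.32, adjusted p = 0.00929). With DZNep 6 PRC1 genes rose, among them Cbx8 (0.63, adjusted p = 6.05e-07), and 4 fell, among them Pcgf3 (-0.44, adjusted p = 9.89e-08). With siEzh2 Pcgf3 (0.60, adjusted p = 9.07e-09) and Bmi1 rose and 4 fell, among them Cbx2 (-0.29, adjusted p = 0.00199). Scr itself was called below DMSO in Pcgf3 and Bmi1, and was not called in Cbx2.

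Of 12 Trithorax and H3K27 demethylase genes, 5 rose and 3 fell with DZNep, 66.7% beside 62.3% of all tested genes, with Dpy30 (log2 change 0.64, adjusted p = 2.03e-07) and Men1, the MLL cofactor menin (0.50, adjusted p = 1.07e-05), higher and the demethylases Kdm6b (-0.95, adjusted p = 1.48e-05) and Kdm6a (-0.31, adjusted p = 0.000276) lower. With siEzh2, Kansl1 rose (0.20, adjusted p = 0.00389) and Rbbp5 fell (-0.31, adjusted p = 3.51e-05), 16.7% beside 26.1% of all tested genes. Scr itself was called above DMSO in Rbbp5, and was not called in Kansl1. With GSK126, where 12.7% of all tested genes were called, edgeR and DESeq2 each called 0 of the 12, and 0 had an unadjusted p under 0.05.

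Among 36 other homeobox genes of the ANTP class, outside the Hox clusters, 9 were tested and 16 were at 0 in all libraries. With DZNep 7 of the 9 fell, 77.8% beside 62.3% of all tested genes (31% lower), with a median of -0.79, and DESeq2 called 6 of them. Gbx1 fell by 2.61 on the log2 scale (adjusted p = 3.81e-06), and Dlx6, a gene of jaw and limb patterning, by 0.49 (adjusted p = 9.4e-07). Dlx6 was at a mean of 47.8 CPM in DMSO and 102 with GSK126 (1.09, adjusted p = 1.98e-10), and at 90.1 in scr and 59.7 in siEzh2 (-0.60, adjusted p = 3.54e-07), with scr above DMSO (0.91, adjusted p = 1.63e-09). It was the only one of the 9 called with GSK126, 11.1% beside 12.7% of all tested genes. Gbx2 was called higher in siEzh2 by edgeR (0.60, adjusted p = 0.0197) and not by DESeq2 (adjusted p = 0.0624), and scr was below DMSO (-0.54, adjusted p = 0.0294). With siEzh2 22.2% of the 9 were called, beside 26.1% of all tested genes.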

How the data were processed

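The values used were the raw read counts that the authors deposited for each gene in 15 libraries, with no normalization. The submitters' processing notes name STAR, featureCounts and the build GRCm38. Versions, annotation and strand setting were not given in the sources used here. Symbols, exons and coordinates came from GENCODE M21, which 45143 of 46078 identifiers matched. The other 935 held 0.0588% of the counts.

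The main test was the robust quasi-likelihood test of edgeR 4.0.16 (R 4.3.3) after TMM scaling and filterByExpr, fitted once to the 15 libraries with 5 group terms and no covariate. Adjusted p-values are Benjamini-Hochberg values over all 15152 genes tested, called under 0.05. The coefficient of variation between libraries was 6.4%. Levels are CPM, as mean ± SD of 3 libraries, and per kb of the union of exons between genes. Alternatives were DESeq2 1.42.0, RLE scaling, library totals, no count filter, compared groups only, a replicate block, no robust estimation and leaving out each library. The pipeline was tested on simulated data.

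Hox genes called in any comparison, or among the 5 highest per length, are given in full, and the others by range. Counts cover all members, but 1 Hox gene and 1 gene of another list are not reported individually here. Of each other gene list, up to 2 called members in each direction are named for the 3 treatments against their controls. The members and lists were chosen with earlier results of these data known. Replicates differed by more than sampling noise (chi-square per degree of freedom 5.77 to 37.8), but no label states that they were separate cultures, so p-values measure the spread between these libraries, which may be technical only. In the library names, the S number of GSK126 replicate 1 comes just before those of the siRNA arm, apart from the other compound libraries. No label says what these numbers stand for. In bulk RNA, fewer expressing cells and less RNA per cell cannot be told apart.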

Additional observations from a re-analysis of the deposited data

Results flagged for a closer look

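The effect of siEzh2 against scr differed from the effect of GSK126 against DMSO in 5 Hox genes, by an interaction contrast in the edgeR fit. The differences, as log2 values of the siEzh2 effect minus the GSK126 effect, were -0.88 for Hoxb9, -0.72 for Hoxa9, -0.58 for Hoxa11, -0.37 for Hoxd13 and -0.28 for Hoxa10. The effects of Hoxb9 and Hoxa9 kept this call under all 19 alternatives run for it. None of these put DMSO in place of scr as the control of siEzh2. For Hoxb9, scr itself was above DMSO by 1.07 in log2 (adjusted p = 2.92e-06), and for Hoxa9 by 0.065 (adjusted p = 0.705). The part of the difference between scr and DMSO in these values was not tested.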

How the results depend on the processing

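Of the 44 calls of the Hox genes reported individually, 30 were kept under every alternative run for them, 14 were lost under at least 1, and 0 changed direction. Counts of called Hox genes ranged without 1 library from 3 to 5 for scr against DMSO (5 with all) and from 2 to 5 for the difference of the siEzh2 and GSK126 effects (5 with all). The first was 3 without DMSO replicate 2 or 3 or scr replicate 2 or 3, and the second 2 without replicate 3 of GSK126, scr or siEzh2. The number of silent genes was 12 with 3 counts or fewer per group as the rule. With the replicate number as a block, DZNep against GSK126 had 15 calls in place of 14 (Hoxa4, 0.81), and the other counts were the same. Same-numbered libraries did not deviate together (correlations from -0.21 to 0.13), so the numbers are not taken as pairs. With only the compared groups in a fit, GSK126 against DMSO had 1131 calls over all genes in place of 1923, and without 1 library as few as 1183 (without GSK126 replicate 2). Against DMSO in place of scr, siEzh2 had 2148 calls over all genes.

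Differences that did not pass the test changed sign under some alternatives, and the cause was not tested. Against DMSO in place of scr, siEzh2 gave log2 changes of 0.064 for Hoxa10, 0.0481 for Hoxa11, -0.11 for Hoxa3, 0.68 for Hoxa4, 0.31 for Hoxb5 and 0.26 for Hoxb6. With library totals as the scale, Hoxd3 in siEzh2 against scr was at -0.00444. Without 1 library, the following ranges of log2 change crossed 0. In GSK126 against DMSO, these were Hoxa2 (-0.17 to 0.21), Hoxa4 (-0.40 to 0.51), Hoxb13 (-0.11 to 0.33), Hoxb3 (-0.12 to 0.0216), Hoxb6 (-0.14 to 0.0137) and Hoxd4 (-0.15 to 0.0568). In DZNep against DMSO, this was Hoxb4 (-0.0131 to 0.33). In siEzh2 against scr, these were Hoxa10 (-0.0819 to 0.0112), Hoxd13 (-0.12 to 0.0603) and Hoxd3 (-0.0638 to 0.16). In scr against DMSO, these were Hoxb13 (-0.39 to 0.0164), Hoxb4 (-0.53 to 0.00196), Hoxd13 (-0.0574 to 0.0686) and Hoxd4 (-0.26 to 0.0201). In the difference of the siEzh2 and GSK126 effects, these were Hoxa3 (-0.11 to 0.00147), Hoxa4 (-0.91 to 0.0106) and Hoxb4 (-0.34 to 0.19). With at most 12 counts in a library, changes of Hox C genes and of Hoxa13, Hoxb2, Hoxb7 and Hoxd10 were not measurable at this depth with the filter.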
